A study of Mus musculus with 16 samples.

Results

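Bone marrow-derived dendritic cells (BMDCs) of 2 knockout genotypes, each treated with c-di-GMP, were compared directly with each other. c-di-GMP is a bacterial cyclic dinucleotide that binds STING, the receptor encoded by Tmem173. The comparison was defined by the labels: the treated Irf1-/- condition was set against the treated Irf3/7-/- condition, and no wild-type value entered it. It was chosen with earlier results of these data known. It rests on 4 of the 16 samples listed, 2 for each of 2 of the 8 conditions. Of the 23356 genes in the deposited table, 11235 could be compared.

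All cells were grown from mouse bone marrow of the C57BL/6 background with GM-CSF and IL-4. The Irf1-/- cells lack IRF1 throughout, and the Irf3/7-/- cells come from animals in which IRF3 and IRF7 are both deleted, so neither genotype is restricted to dendritic cells. The Irf1-/- mice and the Irf3/7-/- mice came from different suppliers, so that genotype and breeding origin cannot be told apart. By the labels, treated cells received 25 µg/ml c-di-GMP for 18 h. A higher dose is named in the study's text, and which was used could not be settled here. Untreated cells of the same genotypes, 2 samples each, were kept for 18 h without it. These 4 untreated samples are separate from the treated ones and give the difference between the genotypes before treatment. The labels say nothing about separate mice or cultures behind the 2 samples of a condition. BMDCs were collected as floating and loosely attached cells without a sort, so the cultures can hold other bone marrow cells.

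FPKM are fragments scaled to transcript length and to the total, a level already corrected for length. The deposited table gives a single FPKM per condition, pooled over both samples, with the bounds of a confidence interval from Cuffdiff. The spread between the 2 samples was therefore not available for a test, and no p-value is given. Genes entered the comparison if both conditions had the status OK and either level reached 1 FPKM. A gene was called higher in a genotype when the levels differed more than 2-fold after 0.1 FPKM had been added and the intervals did not overlap. Differences are on the log2(FPKM + 0.1) scale, Irf3/7-/- minus Irf1-/-, so that a positive value means a higher level in Irf3/7-/- BMDCs. The bounds in parentheses after an FPKM are those of its interval. For genes of 10 FPKM or more the bounds lay 25.6% away from the level, as a median, in both treated conditions. Sequencing depth is unknown, since FPKM does not keep it.

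IRF1, IRF3 and IRF7 are transcription factors of the interferon regulatory factor family. IRF3 is present in resting cells and is phosphorylated by TBK1 after STING is engaged, and IRF7 is itself an interferon-induced gene. Together they drive the type I interferon genes. IRF1 is induced by interferons and inflammatory signals and acts on many genes of the interferon-γ response, among them those of the guanylate-binding proteins, antigen presentation and nitric oxide synthesis. It is also needed for the development of NK cells and CD8+ T cells in mice.

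The targeted genes were examined first, since they check the labels. Irf7 was 969 FPKM (bounds 698 and 1241) in treated Irf1-/- BMDCs and 4.97 FPKM (bounds 3.46 and 6.49) in treated BMDCs labelled Irf3/7-/- (-7.58). Without treatment it was 6.22 and 1.07 FPKM, so Irf7 was low in the cells labelled Irf3/7-/- in both states. Irf1 was 116 FPKM (bounds 82.8 and 149) in treated Irf1-/- BMDCs and 262 FPKM (bounds 187 and 338) in treated Irf3/7-/- BMDCs, a difference of 1.18, and 25.9 against 164 FPKM without treatment. Irf1 transcript was thus lower in the cells that lack IRF1, but was present. Irf3 went against the label of the treated cells: it was 18.8 FPKM (bounds 13.6 and 23.9) in treated Irf1-/- and 20.2 FPKM (bounds 14.8 and 25.7) in treated BMDCs labelled Irf3/7-/-, with overlapping intervals. In untreated cells Irf3 was 20.2 FPKM (bounds 14.9 and 25.5) in Irf1-/- and 7.74 FPKM (bounds 5.55 and 9.96) in Irf3/7-/- BMDCs and was called lower in the latter. Bcl2l12, the gene next to Irf3, was 6.18 and 7.72 FPKM with treatment and 8.52 and 3.06 FPKM without, so it was called lower in Irf3/7-/- cells in the same state as Irf3. A level over the whole gene cannot show whether a deleted exon is missing, so it was not tested whether the treated cells carry the Irf3 deletion. For every direction below, Irf3/7-/- means the BMDCs with that label.

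**Figure D1:**
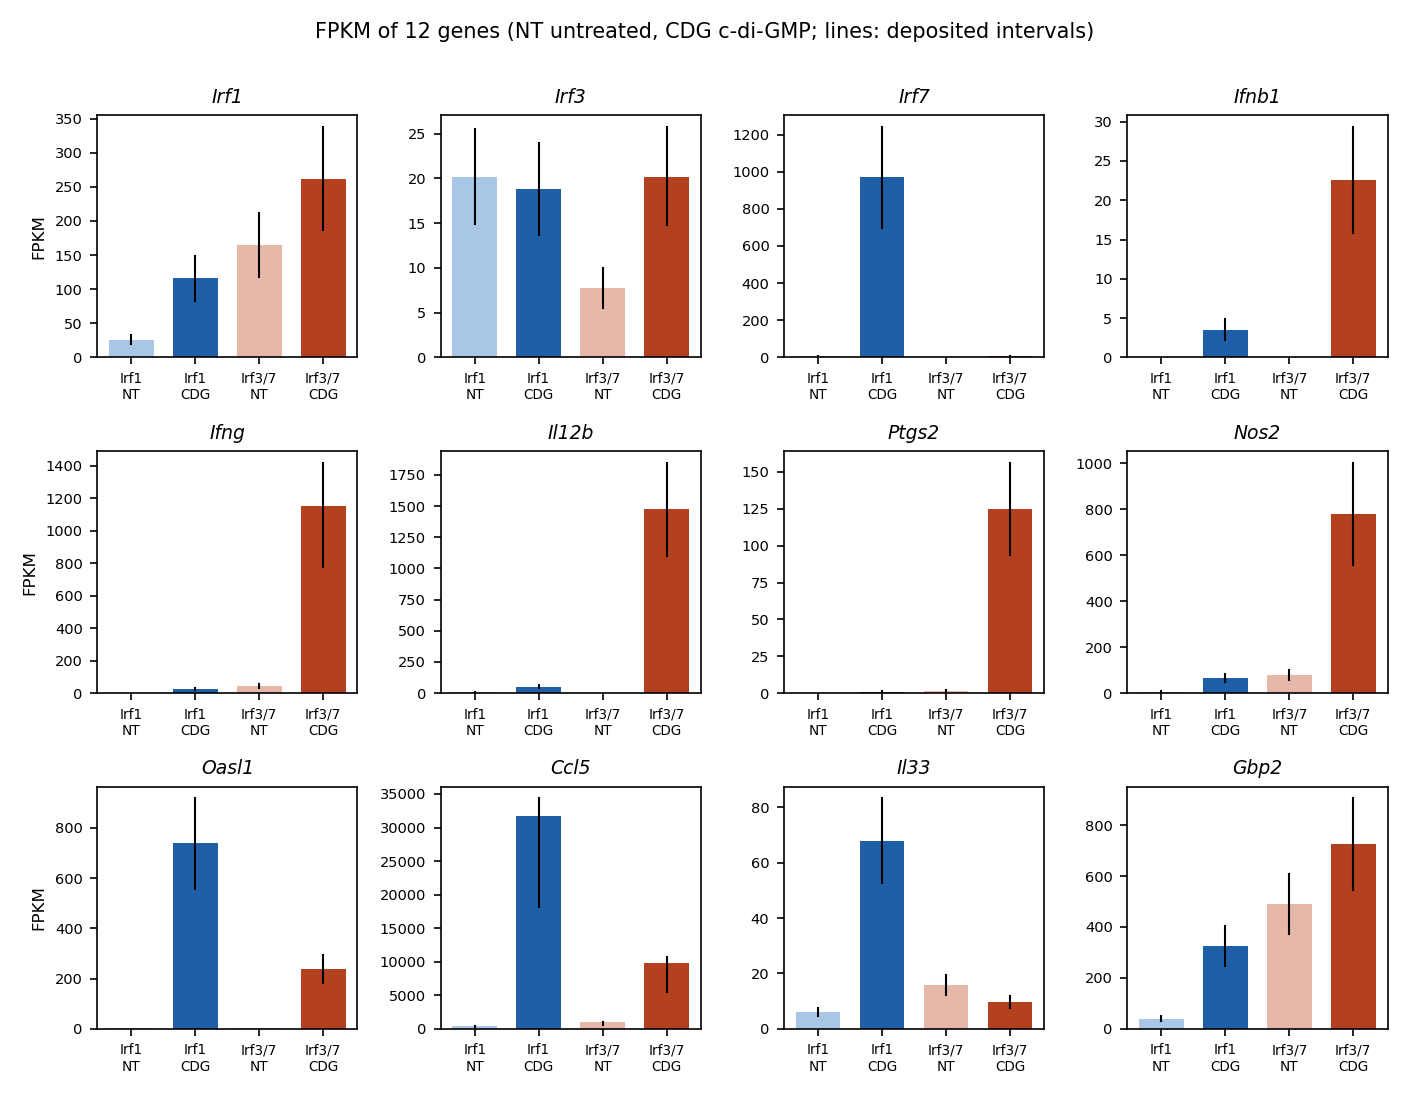
FPKM of 12 genes in untreated (NT) and c-di-GMP-treated (CDG) Irf1-/- and Irf3/7-/- BMDCs, each on its own linear axis from 0. Bars are the deposited FPKM of each condition (2 samples pooled) and lines its interval; Irf7, Oasl1, Ccl5 and Il33 stand highest in treated Irf1-/- cells, and Ifnb1, Ifng, Il12b, Ptgs2 and Nos2 in treated Irf3/7-/- cells.

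Among the other members of the family, Irf4, a factor of dendritic cell subsets, was 345 FPKM (bounds 262 and 429) in treated Irf1-/- and 172 FPKM (bounds 132 and 212) in treated Irf3/7-/- BMDCs and was called higher in Irf1-/- by a narrow margin (-1.0), a call that was lost once the difference was centred on the median of all genes. Irf8, which directs the development of dendritic cells and monocytes, was 201 and 322 FPKM and was not called. Before treatment Irf8 was called higher in Irf3/7-/- BMDCs, at 69.8 against 17.0 FPKM. Irf2, Irf5 and Irf9 were not called in either state.

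Of the 11235 genes compared, 744 (6.62%) were called higher in treated Irf3/7-/- BMDCs and 362 (3.22%) higher in treated Irf1-/- BMDCs. The median difference of all compared genes was -0.04, and 88.8% of them lay within 2-fold. Differences of more than 4-fold were found for 284 of the 744 and 97 of the 362 genes, and more than 16-fold for 64 and 13. In the untreated cells 11059 genes were compared, of which 419 (3.79%) were called higher in Irf3/7-/- and 141 (1.27%) higher in Irf1-/- BMDCs, with a median of -0.01. The counts of every gene list below are to be read beside these shares of all genes. Of the genes higher in Irf3/7-/- with treatment, 258 had the same call without it, which is 34.7% of the 744 and 61.6% of the 419. In the other direction 42 genes were shared, 11.6% of the 362 and 29.8% of the 141. A further 26 genes with at least 10 FPKM in one treated condition were listed at 0 in the other and were not called. The 5 called genes nearest to the 2-fold limit had differences of 1.0 in size for Irf3/7-/- and 1.0 to 1.01 for Irf1-/-, and the 5 nearest genes beyond it, with intervals that also did not overlap, 0.992 to 0.998 and 0.992 to 0.999.

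**Figure D2:**
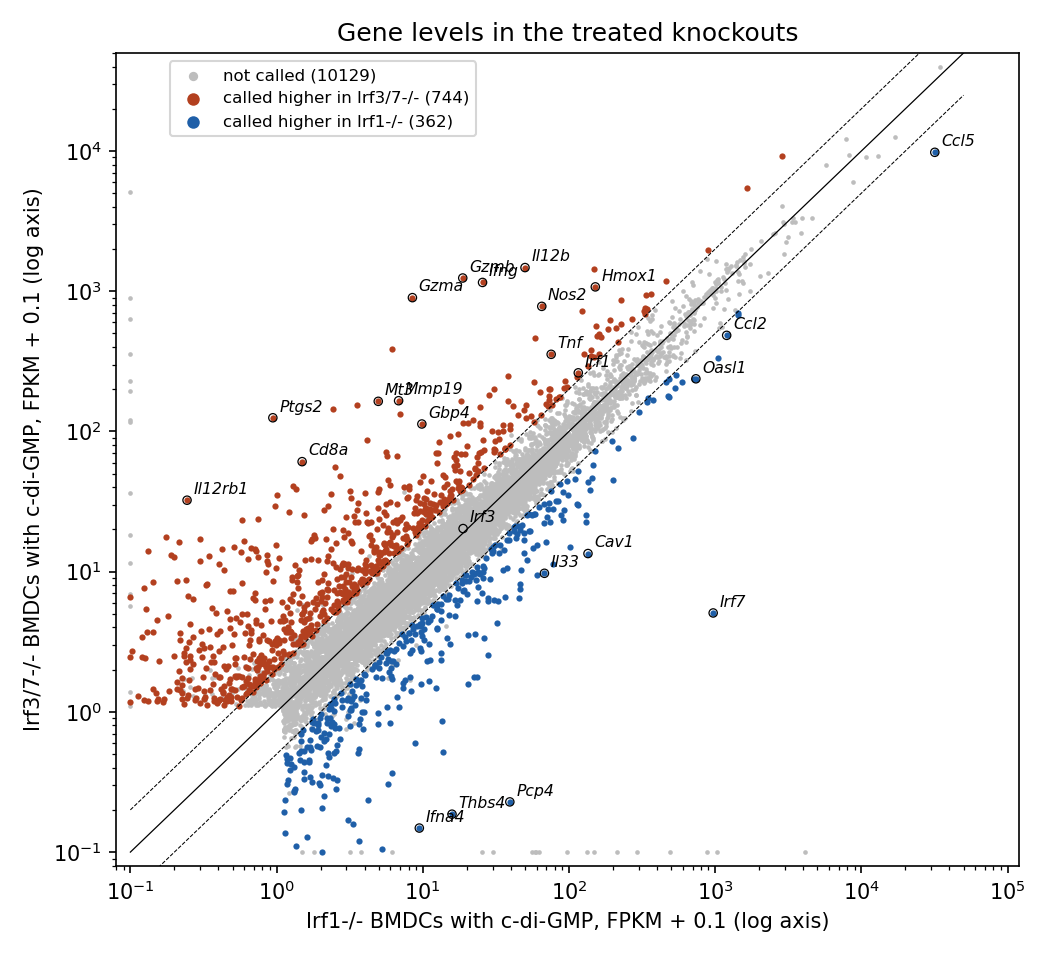
Each point is a gene compared in the treated cells, at its FPKM + 0.1 in Irf1-/- BMDCs (x) and in Irf3/7-/- BMDCs (y), both on log axes; the solid line marks equal levels and the dashed lines 2-fold. The 744 genes called higher in Irf3/7-/- lie above and the 362 called higher in Irf1-/- below, with Irf7, Pcp4 and Thbs4 farthest below and Ptgs2 and Il12rb1 farthest above among the circled genes.

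The genes with the largest differences fell into distinct kinds. The 15 largest towards Irf3/7-/- with at least 10 FPKM were Ptgs2, Il12rb1, Klrd1, Gzma, Ctla4, Klra7, Prf1, Gzmb, Gzmg, Gzmc, Il2rb, Cysltr2, Ifng, Nkg7 and Cd8a, with differences from 5.35 to 7.05. Ptgs2 encodes the inducible cyclooxygenase, while most of the others are known from cytotoxic lymphocytes: granzymes (Gzma, Gzmb, Gzmc and Gzmg), perforin (Prf1), NK cell receptors (Klrd1 and Klra7), the granule protein of Nkg7, the IL-2 receptor chain of Il2rb and the co-receptor of Cd8a. Before treatment 14 of these 15 already had the same call, Ctla4 being the exception at 0.0688 and 0.455 FPKM. Klra7 overlaps 17 other Klra entries of the table, so its level is uncertain. The 15 largest towards Irf1-/- were Irf7, Pcp4, Thbs4, Ankrd1, Nts, Anxa8, Slamf9, Fbp1, Cav1, Ptx3, Stfa1, Ccnd1, Il33, Tnfsf8 and Nov, from -2.75 to -7.58, and 6 of them had the same call before treatment. Anxa8, Ptx3 and Ccnd1 overlap other loci of the table, and the level of Stfa1 in a compared condition lay outside its own interval, so these values are less certain. Ptgs2, Il12rb1, Klrd1, Ctla4, Klra7, Prf1, Gzmg and Cysltr2 were below 1 FPKM in treated Irf1-/- cells. Pcp4, Thbs4, Ankrd1 and Nts were below it in treated Irf3/7-/- cells. All of these were compared only through the other genotype, which set the direction of their calls. The size and rank of their differences depend in part on the 0.1 FPKM added.

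Several genes of the second group were close to absent in every condition but treated Irf1-/- BMDCs. Pcp4, a small calmodulin-binding protein, was 39.3 FPKM there against 0.128 in treated Irf3/7-/- cells, and 0.351 and 0.172 FPKM in untreated Irf1-/- and Irf3/7-/- cells. Thbs4, a secreted thrombospondin, was 15.8 against 0.0864 FPKM with treatment and 0.0363 and 0.133 FPKM without. Nts, the neurotensin precursor, was 13.4 against 0.755 and 0.0370 and 0.375 FPKM. In each case 1 condition stood apart and its interval did not overlap that of the other genotype.

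Because cytotoxic lymphocyte genes led the list, markers of the cell types that a bone marrow culture can hold were listed for every condition. All 9 compared T cell markers and all 6 compared NK cell markers were called higher in treated Irf3/7-/- BMDCs, with median differences of 5.00 and 6.08. Untreated, 8 of 9 and 7 of 7 had this call, with medians of 3.47 and 4.25. In Irf1-/- cells 8 of 10 T cell and 6 of 9 NK cell markers were below 1 FPKM with treatment, and 7 and 6 without. Such markers could be compared only through their level in Irf3/7-/- cells, so the filter set the direction of their calls. The counts, and the medians wherever they are repeated below, rest in part on it. The summed FPKM of the 10 T cell markers in the table was 10.8 in treated Irf1-/- and 192 in treated Irf3/7-/- cells, and 7.54 and 106 in the untreated cells. For the 9 NK cell markers the sums were 29.0 and 2185 FPKM with treatment and 18.9 and 704 FPKM without, most of it from Gzma and Gzmb. Cd3e, a chain of the T cell receptor complex, was 0.479 and 23.3 FPKM in treated Irf1-/- and Irf3/7-/- cells. Among the defining markers Cd4 stayed between 0.0737 and 0.154 FPKM in the 4 conditions, and the NK cell receptor Ncr1 was listed at 0 in both Irf1-/- conditions and at 0.397 and 0.661 FPKM in untreated and treated Irf3/7-/- cells. The cultures labelled Irf3/7-/- thus held transcripts of lymphocytes at levels that the Irf1-/- cultures did not, in both states. In bulk RNA, fewer cells of a type and less RNA per cell cannot be told apart.

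**Figure D3:**
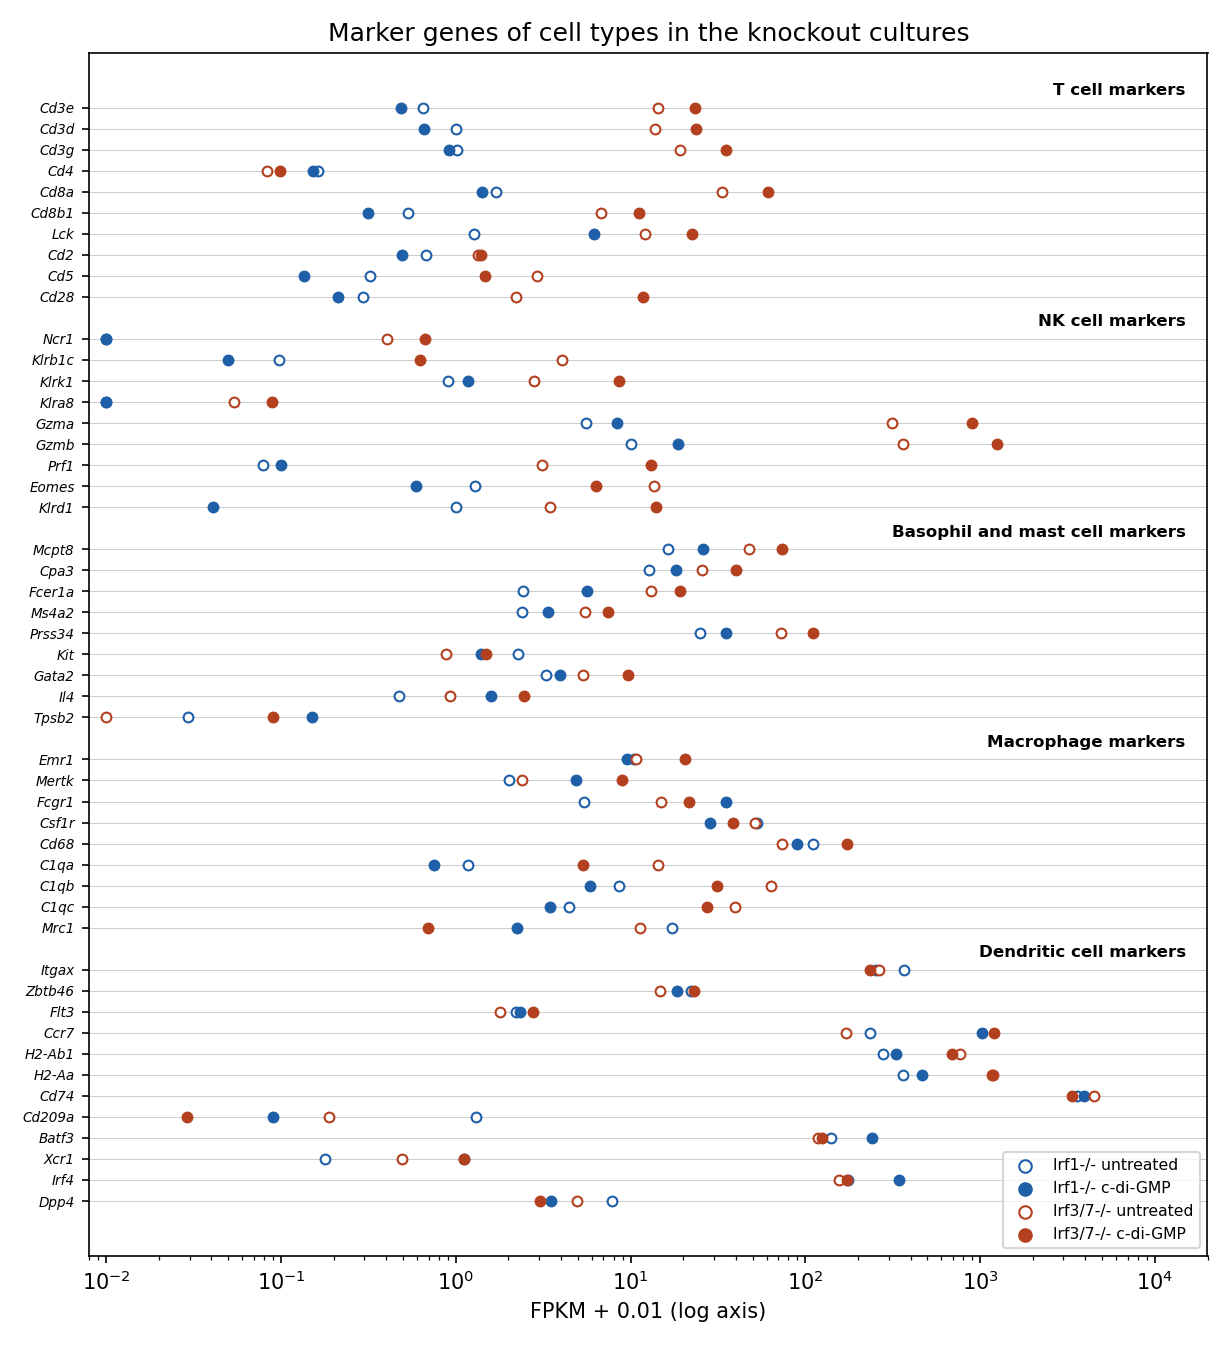
FPKM + 0.01 (log axis) of marker genes of 5 cell types in untreated (open) and treated (filled) Irf1-/- (blue) and Irf3/7-/- (red) BMDCs, 1 pooled value per condition. Cd3, Cd8 and granzyme genes are higher in both Irf3/7-/- conditions, while dendritic cell markers such as Itgax and Ccr7 lie close together within a treatment.

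Other cell types differed less. Of 8 compared basophil and mast cell markers, 6 were called higher in treated Irf3/7-/- cells, with a median of 1.20 against 1.18 without treatment. The basophil protease Mcpt8 was 26.0 and 74.0 FPKM, and Prss34, a protease of the same cells, 35.2 and 110.4 FPKM. Among 10 macrophage markers 5 were called higher in Irf3/7-/- and Mrc1, the mannose receptor, lower (2.24 against 0.688 FPKM). The 3 chains of complement C1q were among them, with C1qc at 3.47 and 27.5 FPKM and the same call before treatment. Of 11 neutrophil markers 4 were called higher in Irf3/7-/- and 1 lower, and of 3 compared B cell markers 1 was higher. The dendritic cell list had a median of 0.00. Itgax, which encodes CD11c, was 255 and 233 FPKM, the transcription factor gene Zbtb46 18.5 and 23 FPKM and the chemokine receptor gene Ccr7 1026 and 1208 FPKM in treated Irf1-/- and Irf3/7-/- cells. Of the 11 compared dendritic cell markers only H2-Aa and H2-Ab1, higher in Irf3/7-/-, and Irf4, higher in Irf1-/-, were called. Xcr1 and Cd209a, markers of particular dendritic cell subsets, were low in both treated cultures, at 1.11 and 1.11 and at 0.0796 and 0.0189 FPKM. Genes of the Y chromosome were expressed and Xist was at or near 0 in all 4 conditions.

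The interferon genes themselves split between the genotypes. Of 16 type I and III interferon entries in the table, only Ifnb1 and Ifna4 reached 1 FPKM in a treated condition. Ifnb1, the gene of interferon-β, was 3.53 FPKM (bounds 2.17 and 4.85) in treated Irf1-/- and 22.6 FPKM (bounds 15.8 and 29.3) in treated Irf3/7-/- BMDCs, a difference of 2.65. Ifna4, an interferon-α gene, went the other way, with 9.37 FPKM (bounds 5.74 and 11.8) in Irf1-/- and 0.0484 FPKM (bounds 0 and 0.123) in Irf3/7-/- BMDCs (-6.00). In untreated cells both genes were at or below 0.0423 FPKM in either genotype. The Ifna genes are near-identical copies, and the share of reads that counting gave to each is uncertain.

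Ifng, the gene of interferon-γ, was 25.5 FPKM (bounds 17.4 and 31.4) in treated Irf1-/- and 1155 FPKM (bounds 777 and 1421) in treated Irf3/7-/- BMDCs, and 1.26 and 44.0 FPKM without treatment. Its level was higher in Irf3/7-/- cells by 5.49 with and 5.02 without c-di-GMP, which is close to the differences of the T and NK cell markers (medians of 5.00 and 6.08 with treatment). NK and T cells are the usual sources of interferon-γ, and the part of these cells in the Ifng level was not tested.

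Antiviral effectors, the genes that type I interferon induces to block viral replication, leaned towards Irf1-/- after treatment. Of 40 compared members 5 were called higher in Irf1-/- and 1 higher in Irf3/7-/- BMDCs, with a median of -0.23, beside 3.22% and 6.62% and a median of -0.04 for all genes. Oasl1, an inhibitor of Irf7 translation, was 738 FPKM (bounds 559 and 918) in Irf1-/- and 237 FPKM (bounds 182 and 292) in Irf3/7-/- cells (-1.64). Oas1a and Oas1g, of the oligoadenylate synthetase family, were 115 and 37.4 FPKM against 52.1 and 10.5 FPKM. Usp18, which removes ISG15 from proteins, was 484 against 236 FPKM (-1.04), and Ifi27l2a, an interferon-induced mitochondrial protein gene, 715 against 235 FPKM. Centred on the median of all genes, Usp18 lost its call and 4 of the 40 were higher in Irf1-/-. The single member higher in Irf3/7-/- was Ifitm1, at 75.8 against 36.7 FPKM. Several well-known members were not called: Rsad2 was 362 and 518 FPKM, Ifit2 268 and 268 FPKM and Mx1 138 and 141 FPKM. Before treatment the same list leaned the other way, with 6 of 35 members higher in Irf3/7-/-, 1 higher in Irf1-/- and a median of 0.41. Oas1a and Oas1g are close relatives in neighbouring loci, and reads may be shared between them.

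The guanylate-binding proteins and immunity-related GTPases, which attack the vacuoles of intracellular pathogens and are classical interferon-γ targets, had the highest median difference among the gene lists other than cell type markers, in both states. In untreated cells all 15 compared members were called higher in Irf3/7-/- BMDCs, against 3.79% of all genes, with a median of 3.26. After c-di-GMP 11 of 17 were called in this direction, against 6.62% of all genes, none was higher in Irf1-/-, and the median was 1.53. Members below 1 FPKM in Irf1-/- cells were compared only through their level in Irf3/7-/- cells. Among them were Gbp4 and Iigp1 untreated and Gbp10 and Gbp11 with treatment. The counts and medians rest in part on this filter. Iigp1 was 0.0896 and 54.3 FPKM in untreated and 6.89 and 132 FPKM in treated Irf1-/- and Irf3/7-/- cells. Gbp4 was 0.414 and 31.2 FPKM without and 9.76 and 113 FPKM with treatment. For both genes the level in treated Irf1-/- cells was below that of untreated Irf3/7-/- cells. Gbp2 was 39.7 and 489 FPKM without and 325 and 726 FPKM with treatment. Gbp5, by contrast, was 9.05 and 66.7 FPKM before and 224 and 228 FPKM after treatment, with no call after it, and Irgm1 was likewise not called (229.7 and 248 FPKM with treatment). These genes are similar in sequence to each other, and the split of reads between Gbp6 and Gbp10 or between Tgtp1 and Tgtp2 is uncertain. The difference of these genes had the same sign as those of Ifng and the lymphocyte markers given above. Its median was smaller with treatment (1.53 against 3.26), whereas that of Ifng was 5.49 with and 5.02 without. The part of Ifng and of lymphocytes in the result was not tested.

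Genes of MHC class I presentation were called in untreated cells and not in treated cells. Untreated, 15 of 24 compared members were called higher in Irf3/7-/- BMDCs and none lower, against 3.79% and 1.27% of all genes, with a median of 1.08. With c-di-GMP none of the 24 was called in either direction, against 6.62% and 3.22% of all genes, and the median was 0.27. B2m, the light chain of class I molecules, was 1720.1 and 3629.9 FPKM untreated and 5719 and 7938 FPKM treated in Irf1-/- and Irf3/7-/- cells. The peptide transporter gene Tap1 was 57.7 and 141 FPKM, then 189.6 and 226 FPKM, and Nlrc5, the transactivator of class I genes, 9.33 and 28 FPKM, then 54.6 and 57.8 FPKM. At 18 h of treatment the 24 listed genes thus had levels whose intervals overlapped or which differed by less than 2-fold. B2m, Tap1 and Nlrc5 were chosen after their values had been seen.

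MHC class II genes were higher in Irf3/7-/- BMDCs in both states. Of 12 compared members 7 were called higher in treated and 6 in untreated Irf3/7-/- BMDCs, against 6.62% and 3.79% of all genes. The medians were 1.05 and 1.0. H2-Eb1 was 152 FPKM (bounds 117 and 188) in treated Irf1-/- and 569 FPKM (bounds 431 and 705) in treated Irf3/7-/- cells, and H2-Aa 462 and 1184 FPKM. The invariant chain gene Cd74, expressed with them, was 3918 and 3336 FPKM and was not called. Ciita, the class II transactivator, was higher in Irf3/7-/- cells before treatment (6.75 against 26.1 FPKM in Irf1-/- and Irf3/7-/-) but not called after it (13.6 and 18.9 FPKM).

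**Figure D4:**
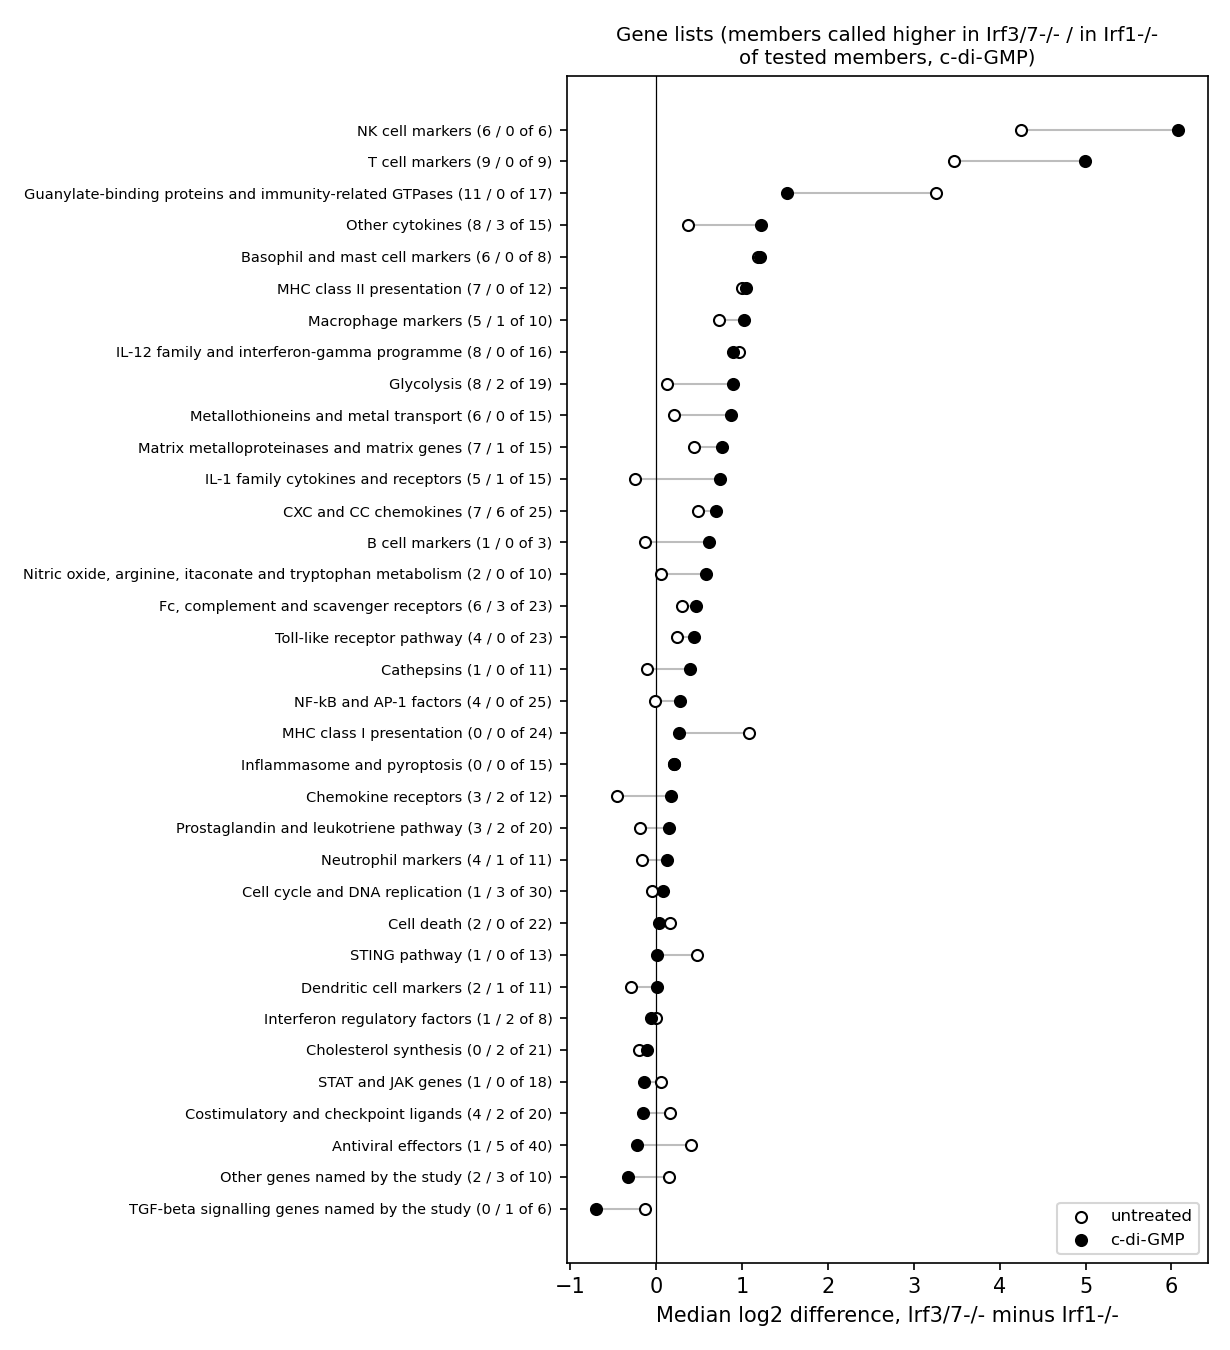
Median log2 difference (Irf3/7-/- minus Irf1-/-) of the compared members of each gene list in untreated (open) and treated (filled) BMDCs; numbers in brackets give members called higher in Irf3/7-/- and in Irf1-/- of those compared with treatment. Guanylate-binding proteins move from 3.26 to 1.53 and MHC class I from 1.08 to 0.27, while glycolysis moves from 0.12 to 0.89 and other cytokines from 0.37 to 1.23. The members compared can differ between the states: for other cytokines they were 9 untreated and 15 treated.

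Of 16 compared genes of the IL-12 family and of those it acts through, 8 were called higher in treated Irf3/7-/- BMDCs and none lower. Of all genes 6.62% and 3.22% were called in these directions. The median was 0.89. Untreated, 6 of 12 were called higher in Irf3/7-/- and none lower, against 3.79% and 1.27% of all genes. The untreated median was 0.97. Il12rb1 and Tbx21, below 1 FPKM in treated Irf1-/- cells, were compared there only through their level in Irf3/7-/- cells. The counts and medians rest in part on this filter. Il12b encodes the p40 subunit shared by IL-12 and IL-23. It was 49.9 FPKM (bounds 38.6 and 61.3) in treated Irf1-/- and 1474 FPKM (bounds 1099 and 1849) in treated Irf3/7-/- cells, a 29.5-fold difference, whereas in untreated cells it was 5.73 and 2.95 FPKM and not called. Il12a, the p35 subunit of IL-12, was 3.08 and 37.6 FPKM. The p19 subunit gene of IL-23, Il23a, was 10.9 FPKM (bounds 8.16 and 13.5) and 18.1 FPKM (bounds 13.7 and 22.4) and was not called, nor were Il27 and Ebi3, the subunits of IL-27, at 10.2 and 16.3 FPKM and 147 and 162 FPKM. Among the receptors, Il12rb1 was 0.144 and 32.2 FPKM in treated Irf1-/- and Irf3/7-/- cells and 0.0886 and 9.43 FPKM before, and Il12rb2 56.1 and 44.9 FPKM with treatment and not called. Tbx21 and Eomes, factors of cytotoxic and type 1 lymphocytes, were higher in Irf3/7-/- by 3.55 and 3.23. T and NK cells, whose compared markers had median differences of 5.00 and 6.08, also express Il12rb1, Tbx21 and Eomes. The part of these cells in the levels of the genes of this list, Il12b included, was not tested.

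Among other cytokine genes, a mixed list, calls went in both directions. Of 15 compared members 8 were called higher in treated Irf3/7-/- and 3 higher in treated Irf1-/- BMDCs, against 6.62% and 3.22% of all genes. In untreated cells 2 and 0 of 9 were called, against 3.79% and 1.27% of all genes. The members compared differ between the states: Csf3, Il10, Il9, Il22 and Il34 were not compared untreated. With treatment each of them was below 1 FPKM in 1 genotype, so the filter set the direction of its call. The treated counts rest in part on this filter. Tnf was 75.4 FPKM (bounds 57.2 and 93.5) in Irf1-/- and 355 FPKM (bounds 266 and 443) in Irf3/7-/- cells with treatment and 65.9 and 83.1 FPKM without. Il6 was 228 FPKM (bounds 152 and 273) and 580.4 FPKM (bounds 383 and 691), and untreated 13.5 and 17.5 FPKM. Both genotypes thus had more Il6 with treatment, and only the treated levels of Tnf and Il6 were called different. Csf2, the gene of GM-CSF, was 1.26 and 38.8 FPKM with treatment and was called without it too, at 1.13 and 12.1 FPKM. It is also a lymphocyte product, and the part of T and NK cells, whose markers had median differences of 5.00 and 6.08, was not tested. Csf3, the gene of G-CSF, was 0.134 and 2.40 FPKM. The anti-inflammatory cytokine gene Il10 was low, at 0.126 and 1.14 FPKM. The 3 cytokine genes higher in Irf1-/- were also low: Il9 was 3.22 against 0.0587 FPKM, Il22 3.50 against 0.408 FPKM and Il34, a ligand of the CSF1 receptor, 1.58 against 0.246 FPKM.

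In the IL-1 family 5 of 15 compared genes were called higher in treated Irf3/7-/- and 1, Il33, higher in treated Irf1-/- BMDCs. Of all genes 6.62% and 3.22% were called in these directions. The median was 0.74. Untreated, 3 of 15 were called in each direction, against 3.79% and 1.27% of all genes, with a median of -0.25. Il1f6, at 0.476 and 4.89 FPKM with treatment, was compared only through its level in Irf3/7-/- cells. Il1b was 113 FPKM (bounds 86.8 and 139) in Irf1-/- and 245 FPKM (bounds 189 and 301) in Irf3/7-/- cells (1.12). Il1a, the other IL-1 gene, was 146 FPKM (bounds 109 and 183) and 266 FPKM (bounds 200.1 and 332) and was not called. Both genes overlap a further annotated locus, and how Cuffdiff used the strand of the reads is not given in the sources used here. Il18bp, a secreted antagonist of IL-18, was 4.04 and 86.9 FPKM with treatment and 1.20 and 17.7 FPKM without, and Il1f9, which encodes an IL-36 cytokine, 16.3 and 65.7 FPKM with treatment. Il33, an alarmin of barrier cells, was 67.8 FPKM (bounds 52.5 and 83.2) in treated Irf1-/- and 9.63 FPKM (bounds 7.35 and 11.9) in treated Irf3/7-/- cells, while before treatment it was higher in Irf3/7-/- (15.9 against 6.01 FPKM). None of the 15 compared inflammasome and pyroptosis genes was called with treatment. Gsdmd, whose product forms the pores of pyroptosis, was 94.4 and 89.8 FPKM, Casp1 68.7 and 102 FPKM and Casp4 81.1 and 100.1 FPKM, although Casp1 and Casp4 had been called higher in untreated Irf3/7-/- cells.

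Chemokine genes divided by family in treated cells. Of 10 compared CXC chemokine genes 6 were called higher in treated Irf3/7-/- BMDCs and none lower, with a median of 1.39. Of 13 compared CC chemokine genes 6 were called higher in treated Irf1-/- BMDCs and none lower, with a median of -1.02. Of all genes 6.62% were called higher in Irf3/7-/- and 3.22% higher in Irf1-/-. In untreated cells the medians were -0.12 for CXC and 0.50 for CC genes. Cxcl5 and Ccl11 were below 1 FPKM in 1 treated genotype, so the filter set the direction of their calls. The split by family was made after the values had been seen. Cxcl1, Cxcl2, Cxcl3 and Cxcl5 encode neutrophil attractants: Cxcl2 was 12.3 FPKM (bounds 7.71 and 14.7) in Irf1-/- and 70.4 FPKM (bounds 45.3 and 80.8) in Irf3/7-/- cells, Cxcl3 18.1 and 165 FPKM, and Cxcl5 0.0976 and 2.39 FPKM. Cxcl9, an interferon-γ target that attracts T cells, was 15.4 and 35.1 FPKM, and its relative Cxcl10 483 and 315 FPKM with no call. Ccl5, one of the most abundant transcripts of the treated cells, was 31790.2 FPKM (bounds 18124 and 34354) in Irf1-/- and 9788 FPKM (bounds 5493 and 10687) in Irf3/7-/- BMDCs (-1.70). Ccl2 and Ccl7, monocyte attractants, were 1199 and 375 FPKM against 484 and 167 FPKM, and Ccl8 was 22.7 against 3.47 FPKM. Ccr2, the receptor of these attractants, went in the same direction, at 60.5 and 9.42 FPKM. Ccl17 was 17101 and 12635 FPKM and was not called, and Ccl22 could not be compared because Cuffdiff gave it the status HIDATA and a level of 0 in both treated conditions. Xcl1, a lymphocyte chemokine, was 2.27 and 35.5 FPKM and had the same call before treatment.

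In the prostaglandin and leukotriene pathway 3 of 20 compared genes were called higher in Irf3/7-/- and 2 higher in Irf1-/-, against 6.62% and 3.22% of all genes. Pla2g4a, the phospholipase that frees arachidonic acid, was 5.67 and 20.3 FPKM in treated Irf1-/- and Irf3/7-/- BMDCs. Ptgs2, the inducible cyclooxygenase that acts next, was 0.843 FPKM (bounds 0.566 and 1.12) and 125 FPKM (bounds 93.4 and 156), a 148-fold difference, and 0.187 and 1.62 FPKM in untreated cells. Ptges, the microsomal prostaglandin E synthase, was 1.15 and 4.25 FPKM. These 3 genes were the members called higher in Irf3/7-/-. The constitutive cyclooxygenase gene Ptgs1 was 22.9 and 13.7 FPKM and not called. Alox5, the enzyme at the head of the leukotriene branch, and the leukotriene receptor gene Cysltr1 were higher in Irf1-/-, at 35.7 against 14.1 and 10.8 against 4.24 FPKM.

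Nos2, the inducible nitric oxide synthase, was 65.1 FPKM (bounds 48.5 and 81.7) in treated Irf1-/- and 779.9 FPKM (bounds 558 and 1002) in treated Irf3/7-/- BMDCs, a 12-fold difference. Untreated cells differed by a like amount, at 6.10 and 78.6 FPKM (3.67 against 3.58 with treatment). Arg1, which competes for the same substrate, was 269.8 and 631 FPKM with treatment and 544 and 540.1 FPKM without. Irg1, the gene of the itaconate-forming enzyme, was called higher in untreated Irf3/7-/- cells (323 against 50.6 FPKM) and was not called after treatment (729 against 1371 FPKM).

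Glycolysis genes were called mostly in the treated cells. Of 19 members 8 were called higher in treated Irf3/7-/- BMDCs and 2 higher in treated Irf1-/- BMDCs, against 6.62% and 3.22% of all genes. The median was 0.89. Without treatment 1 was called in each direction, against 3.79% and 1.27% of all genes, with a median of 0.12. The 8 were Slc16a3, Slc2a1, Pfkl, Pfkfb3, Tpi1, Pkm, Hk1 and Eno1. Slc2a1, the glucose transporter, was 38.2 FPKM (bounds 27.5 and 48.3) in treated Irf1-/- and 166 FPKM (bounds 119 and 208) in treated Irf3/7-/- cells, and Slc16a3, a lactate exporter, 24.4 and 114 FPKM. In untreated cells these 2 genes were 51.8 and 69.8 and 38.6 and 42.0 FPKM. Neither gene was called different between the untreated cells. Pfkp and Fbp1 were higher in Irf1-/-. Fbp1, an enzyme of the reverse pathway, was 27.9 against 2.45 FPKM and had the same call before treatment.

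Iron and metal genes showed a like shift, with 6 of 15 called higher in treated Irf3/7-/- BMDCs and none lower, against 6.62% and 3.22% of all genes. Their median was 0.87 against 0.21 without treatment. Hmox1, the heme oxygenase, was 151 FPKM (bounds 115 and 187) in Irf1-/- and 1074 FPKM (bounds 807 and 1337) in Irf3/7-/- cells. The ferritin heavy chain gene Fth1 was 2864 and 9216 FPKM, Slc11a1, a phagosomal metal transporter, 7.35 and 40.2 FPKM, and the iron exporter gene Slc40a1 2.15 and 8.14 FPKM. Mt3, a metallothionein, was 4.86 and 164 FPKM with treatment and 31.2 and 45.7 FPKM without, so its level was lower with treatment in Irf1-/- and higher in Irf3/7-/- cells. Its close relatives Mt1 and Mt2 were 369 and 636 and 372 and 680.1 FPKM and were not called.

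Of 15 compared genes of matrix metalloproteinases and the matrix, 7 were called higher in treated Irf3/7-/- BMDCs and 1 higher in Irf1-/-. Of all genes 6.62% and 3.22% were called in these directions. Mmp19 was 6.74 FPKM (bounds 4.86 and 8.61) and 166 FPKM (bounds 123 and 208), with 4.93 and 6.41 FPKM in untreated cells, though its locus overlaps Tmem198b. Mmp13, a collagenase, was 38.4 and 246 FPKM, and Thbs1, a thrombospondin, 24.4 and 108 FPKM. Timp1, an inhibitor of these proteases, was the gene higher in Irf1-/-, at 528 against 202 FPKM.

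Among receptors and signalling genes the called share varied between lists. In the Toll-like receptor pathway 4 of 23 compared genes (17.4%) were called higher in Irf3/7-/- and none lower, against 6.62% and 3.22% of all genes. Cd14, the co-receptor for lipopolysaccharide, was 12.9 and 84.2 FPKM with and 10.6 and 8.57 FPKM without treatment. Among 25 compared NF-κB and AP-1 genes 4 (16%) were higher in Irf3/7-/- and none lower, with Nfkbiz, a regulator of secondary response genes, at 4.04 and 22.3 FPKM. Of 13 STING pathway genes only Nlrc3 was called, at 0.166 and 3.32 FPKM, and Tmem173 itself was 97.1 and 80.0 FPKM. Of 18 STAT and JAK genes only Stat4, which transmits the IL-12 signal, was called, at 36.2 and 75.2 FPKM. Shares such as 1 of 13 or 1 of 18 lie near the 6.62% of all genes. Costimulatory genes were split, with 4 of 20 higher in Irf3/7-/- and 2 higher in Irf1-/-: Tnfsf8, the ligand of CD30, was 77.5 in treated Irf1-/- and 11.2 FPKM in treated Irf3/7-/- cells, while Cd80 and Cd86, the ligands of CD28, were 197 and 122 and 248 and 209.6 FPKM and were not called.

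Among genes of the cell cycle 1 of 30 was called higher in Irf3/7-/- and 3 higher in Irf1-/-, against 6.62% and 3.22% of all genes. The latter were Ccnd1 and Ccnd2, cyclins of G1, at 32.3 and 478 against 4.22 and 180.1 FPKM, and the mitotic checkpoint kinase gene Bub1b at 13.3 against 4.42 FPKM. Mki67, a general marker of proliferation, was 17.2 and 15.6 FPKM. Of 21 cholesterol synthesis genes 2 were called, both higher in Irf1-/-: Ch25h, which makes 25-hydroxycholesterol, and Abcg1, a cholesterol exporter (-1.12 and -1.01), the second of which lost its call on centring. Cell death genes gave 2 calls of 22, both towards Irf3/7-/-, Bcl2 and Tnfsf10, and cathepsins 1 of 11, Ctsw, a protease of cytotoxic lymphocytes (1.19 and 40.4 FPKM), both shares near the 6.62% of all genes. In the list of Fc, complement and scavenger receptors 6 of 23 were higher in Irf3/7-/- and 3 higher in Irf1-/-, against 6.62% and 3.22% of all genes. In that of chemokine receptors the counts were 3 and 2 of 12. The study chose some genes on these same samples, so their counts are no independent evidence of a direction: of 6 TGF-β genes 1, E2f5, was higher in Irf1-/-, and of 10 further genes 2 (Edn1 and Prdx1) were higher in Irf3/7-/- and 3 (Src, Hdac10 and Yes1) higher in Irf1-/-.

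The difference between the genotypes before and after treatment could be followed gene by gene, since the 2 comparisons share no samples. Of the 744 genes higher in treated Irf3/7-/- BMDCs, 483 (64.9%) were called in neither direction without treatment, with a median of 1.47 with and 0.38 without it. Of the 362 higher in treated Irf1-/- BMDCs, 313 (86.5%) were not called without treatment, with medians of -1.44 and -0.26. In the reverse, 154 of the 419 genes higher in untreated Irf3/7-/- cells and 96 of the 141 higher in untreated Irf1-/- cells were not called after treatment. Their medians were 0.36 and -0.28 with treatment and 1.42 and -1.34 without it. Each of these sets was chosen by a call in 1 state and none in the other. The choice itself sets the medians of the 2 states apart, so they do not measure an effect of treatment. A small set of 10 genes changed sides. Cxcl1, Cxcl2 and Ramp3 were called higher in Irf1-/- without and in Irf3/7-/- with treatment, and C1s, Cav1, Ccl8, Gbgt1, H2-M2, Il33 and Zranb3 the other way. Cav1, the gene of caveolin-1, was 15.4 and 43.2 FPKM in untreated and 135 FPKM (bounds 104 and 165) and 13.4 FPKM (bounds 10.2 and 16.5) in treated Irf1-/- and Irf3/7-/- cells. Cxcl2 was 17.3 and 4.31 FPKM in untreated cells. The sign of the difference was thus opposite in the 2 states for these genes, with intervals that did not overlap in either.

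**Figure D5:**
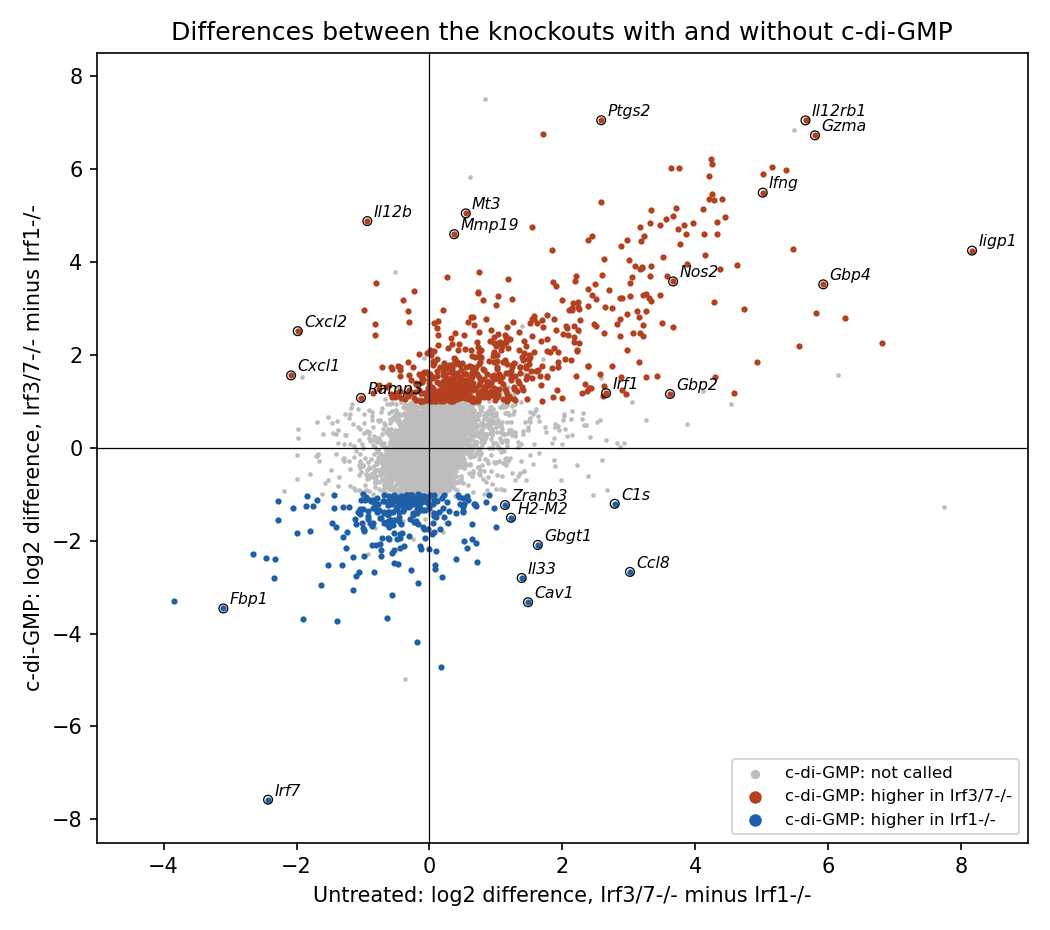
Log2 difference (Irf3/7-/- minus Irf1-/-) of each gene compared in both states, untreated on the x axis and with c-di-GMP on the y axis; colours give the call with treatment. Il12b, Mt3 and Mmp19 lie high with untreated differences of less than 1 in size, lymphocyte genes such as Gzma high on both axes, and the genes that changed sides at the upper left and lower right.

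The neighbours of the targeted genes were also examined. Within 1 Mb of Irf1 (chr11:53770014-53778374) 6 of 19 compared genes (31.6%) were called in treated cells, all higher in Irf3/7-/-: Csf2, Il13, Slc22a4, Pdlim4, P4ha2 and Gm12216. Within 1 Mb of Irf3 (chr7:44997648-45002848) 4 of 60 genes (6.67%) and within 1 Mb of Irf7 (chr7:141263183-141266424) 4 of 35 genes (11.4%) were called, against 6.62% and 3.22% of all genes in the 2 directions. Windows of 5 Mb gave 14.8%, 11.7% and 14.3%. These genes were named after their values had been seen, and whether their position bears on their levels was not tested.

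Promoter sequences of genes that the results turn on are shown because IRF factors bind repeats of the bases GAAA, the interferon-stimulated response element. The motif GAAANNGAAA was searched on both strands of reference windows from 250 bases before to 50 bases after each RefSeq gene start (GRCm38.p6), and overlapping matches were kept. In the windows below, written 5′ to 3′ on the gene's own strand, capitals mark its matches. The first 3 genes were higher in treated Irf1-/- BMDCs, their windows lying at chr5:120907476-120907775, minus strand, at chr5:120887564-120887863, minus strand and at chr4:88841566-88841865, plus strand.
Oas1a: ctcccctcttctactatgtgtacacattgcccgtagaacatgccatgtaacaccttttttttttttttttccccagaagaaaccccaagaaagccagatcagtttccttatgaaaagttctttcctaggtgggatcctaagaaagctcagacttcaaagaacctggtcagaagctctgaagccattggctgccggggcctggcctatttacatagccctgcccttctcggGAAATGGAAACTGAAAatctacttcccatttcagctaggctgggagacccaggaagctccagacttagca
Oas1g: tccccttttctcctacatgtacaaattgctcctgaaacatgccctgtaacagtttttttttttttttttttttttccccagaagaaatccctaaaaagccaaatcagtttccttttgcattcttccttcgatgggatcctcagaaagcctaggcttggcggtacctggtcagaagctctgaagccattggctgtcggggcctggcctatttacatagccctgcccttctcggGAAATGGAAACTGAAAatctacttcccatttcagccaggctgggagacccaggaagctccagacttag
Ifna4: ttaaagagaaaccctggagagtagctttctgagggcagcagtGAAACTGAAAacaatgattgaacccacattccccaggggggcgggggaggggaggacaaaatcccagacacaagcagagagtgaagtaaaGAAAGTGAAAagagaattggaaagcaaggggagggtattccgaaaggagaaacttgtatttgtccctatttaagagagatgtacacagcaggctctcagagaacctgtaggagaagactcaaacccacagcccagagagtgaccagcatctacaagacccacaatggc
Oas1a and Oas1g each held 2 overlapping matches in the same stretch just before the gene start, and Ifna4 held 2 separate matches. The next 2 genes were higher in treated Irf3/7-/- BMDCs, with windows at chr3:142620413-142620712, plus strand and at chr11:48992197-48992496, minus strand.
Gbp2: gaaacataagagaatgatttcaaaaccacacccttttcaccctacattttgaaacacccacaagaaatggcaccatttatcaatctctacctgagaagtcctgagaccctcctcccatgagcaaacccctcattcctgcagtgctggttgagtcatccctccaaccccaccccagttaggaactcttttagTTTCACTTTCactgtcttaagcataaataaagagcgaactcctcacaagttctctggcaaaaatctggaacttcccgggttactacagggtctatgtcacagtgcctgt
Tgtp1: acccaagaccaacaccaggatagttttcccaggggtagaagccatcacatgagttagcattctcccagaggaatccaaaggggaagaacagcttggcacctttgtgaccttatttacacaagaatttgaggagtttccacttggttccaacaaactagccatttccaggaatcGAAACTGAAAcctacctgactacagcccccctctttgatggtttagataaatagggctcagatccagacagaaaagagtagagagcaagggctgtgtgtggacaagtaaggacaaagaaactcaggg
Gbp2 held the motif on the opposite strand and Tgtp1 on the gene's own strand, each once. The same letters thus occurred in genes of both directions. The last 3 windows belong to Irf7 and Ptgs2, first among the leading genes of their directions, and to Il12b, at chr7:141266375-141266674, minus strand, at chr1:150099781-150100080, plus strand and at chr11:44399813-44400112, plus strand.
Irf7: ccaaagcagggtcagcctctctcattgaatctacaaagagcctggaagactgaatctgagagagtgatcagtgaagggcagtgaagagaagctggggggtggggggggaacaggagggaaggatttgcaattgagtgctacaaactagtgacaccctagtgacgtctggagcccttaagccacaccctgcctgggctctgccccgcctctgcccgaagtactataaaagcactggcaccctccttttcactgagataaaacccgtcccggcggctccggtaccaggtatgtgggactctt
Ptgs2: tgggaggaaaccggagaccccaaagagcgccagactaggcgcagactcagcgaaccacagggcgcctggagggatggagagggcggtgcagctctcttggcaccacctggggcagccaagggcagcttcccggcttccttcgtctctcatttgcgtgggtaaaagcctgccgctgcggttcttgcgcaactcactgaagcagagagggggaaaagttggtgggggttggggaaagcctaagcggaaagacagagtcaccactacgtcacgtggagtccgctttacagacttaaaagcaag
Il12b: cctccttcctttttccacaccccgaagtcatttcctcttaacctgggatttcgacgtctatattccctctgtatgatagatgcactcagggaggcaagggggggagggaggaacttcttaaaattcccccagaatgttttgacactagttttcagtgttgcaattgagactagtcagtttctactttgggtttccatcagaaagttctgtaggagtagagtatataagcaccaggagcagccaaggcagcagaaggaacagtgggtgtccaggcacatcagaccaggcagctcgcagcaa
These 3 windows held no match, which says only that these letters were not in them. Of all 32851 windows 3.44% held the motif. A window could be matched for 562 of the 744 and 270 of the 362 genes (75.5% and 74.6%), which is under 80%. A comparison of the motif's share between the called sets and all genes would therefore be void and is not made.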

How the data were processed

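RNA-seq of c-di-GMP-treated Irf1-/- and Irf3/7-/- BMDCs, and of both genotypes untreated, was used, with 2 samples per condition. The authors deposited FPKM values per gene from Cuffdiff, which pooled the 2 samples of a condition and gave an interval and a status. The submitters' processing notes name Cuffdiff 1.06 and mm9, but 21454 of 21681 gene loci (99.0%) overlapped the gene of that name on GRCm38, so coordinates are those of GRCm38. The libraries were stranded and the methods state a strand-specific analysis in SeqMonk, while the aligner, the annotation and the strand setting of Cuffdiff are not given in the sources used here. Of 9 FPKM columns 4 were used, and those of wild-type and Tmem173-/- BMDCs were not. The last FPKM column, with its bounds and status 4 columns in all, belongs to a genotype outside the listed samples and was left out.

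Values were compared on the log2(FPKM + 0.1) scale with Python 3.11.15, pandas 2.3.3, numpy 2.4.6 and scipy 1.17.1 (figures with matplotlib 3.10.9). A gene needed status OK in both conditions and a level of 1 FPKM in either, and was called when the fold exceeded 2 and the intervals did not overlap. These intervals come from Cuffdiff, and how far they cover the spread between the 2 samples is not given in the sources used here. For genes of 10 FPKM or more their median half-width was 25.6% of the level in each of the 4 conditions. Intervals that do not overlap therefore need not allow for the spread of the samples. The steps were tested on simulated data. Between 64 and 87 genes per condition had an FPKM outside its own interval, and leaving these out was an alternative chosen after seeing the data. Other alternatives changed the pseudocount, the minimum, the fold, the centring and the use of intervals.

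The comparison, the 37 gene lists and the alternatives were chosen with earlier results of these data known. Genes were named by rule: the IRF genes, the 15 largest called differences in each direction with at least 10 FPKM, up to 5 called members of each list with the largest differences, members that the study names, and the 5 genes in each direction whose difference changed most with treatment. Other list members named in the text (B2m, Ccl2, Ccl5, Ccl7, Ccl17, Ccr7, Cd4, Cd74, Cd209a, Ciita, Cxcl2, Cxcl9, Cxcl10, Gbp2, Gbp5, Ifit2, Il12rb2, Irg1, Irgm1, Itgax, Mki67, Mt1, Mt2, Mx1, Ncr1, Nlrc5, Ptgs1, Rsad2, Tap1, Tgtp1, Timp1, Tmem173, Usp18, Xcr1 and Zbtb46), Bcl2l12, the genes near Irf1 and the promoters shown were chosen after their values were seen. A few members of the lists are not reported here by name. Promoter windows came from RefSeq (GRCm38.p6) and were matched by symbol and position for 17446 genes.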

Additional observations from a re-analysis of the deposited data

Results flagged for a closer look

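For 10 genes the difference between the genotypes had opposite calls in untreated and treated cells. This difference between states was not tested, since the table holds 1 pooled value per condition. The change of the log2 difference (Irf3/7-/- minus Irf1-/-) from untreated to treated cells was 4.49 for Cxcl2, 3.64 for Cxcl1 and 2.10 for Ramp3, which moved towards Irf3/7-/-. Ramp3, a receptor-activity-modifying protein gene, was 197 and 96.4 FPKM in untreated and 71.5 and 151 FPKM in treated Irf1-/- and Irf3/7-/- BMDCs. Towards Irf1-/-, the change was -5.69 for Ccl8, -4.81 for Cav1, -4.19 for Il33, -3.99 for C1s, -3.72 for Gbgt1, -2.73 for H2-M2 and -2.37 for Zranb3. H2-M2, a non-classical class I gene, was 11.2 and 26.3 FPKM untreated and 217 and 76.4 FPKM treated. C1s, a protease of the complement cascade, was 0.103 and 1.30 and then 3.16 and 1.31 FPKM, and Gbgt1, a glycosyltransferase gene, 0.605 and 2.08 and then 2.61 and 0.536 FPKM. Zranb3, a DNA repair gene, was 4.96 and 11 and then 9.5 and 3.99 FPKM.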

How the results depend on the processing

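No gene named by the rule reversed its direction under the alternatives that were run. A pseudocount of 1 FPKM gave 75 untreated genes higher in Irf1-/- and 23 higher there in both states. Without a minimum, 66 genes were higher in Irf1-/- in both states. A minimum of 5 FPKM gave 492 treated genes higher in Irf3/7-/- and 231 higher in Irf1-/-, 253 and 69 untreated, and 149 and 19 in both states. A fold above 1.5 gave 581 treated and 222 untreated genes higher in Irf1-/-, 69 of them in both states. A fold above 4 gave 284 treated genes higher in Irf3/7-/- and 97 higher in Irf1-/-, 186 and 20 untreated, 120 and 7 in both states, and 73 called list members against 165. With 3 bases between the repeats 3.13% of the promoters of called genes held the motif, against 5.65% with 2. Both shares rest on the under 80% of genes with a window and cannot be set against the 3.44% of all windows. These settings change the threshold itself. Under the other settings the counts of called and shared genes stayed within 1.5 times. The share called near Irf1 was 14.8% within 5 Mb against 31.6% within 1 Mb, and near Irf3 11.7% against 6.67%. Of 145 called genes named by the rule, 9 lost their call with a pseudocount of 1 FPKM (among them Abcg1, Cd79a, Fos, Hdac10, Il10, Mrc1, Tlr6 and Yes1), 20 with a minimum of 5 FPKM and 60 with a fold above 4. Centring cost Abcg1, Irf4 and, among genes named after their values were seen, Usp18 their calls, and leaving out genes outside their own interval, an alternative chosen after seeing the data, cost Stfa1 its call.

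No paired analysis was possible because the table holds 1 pooled value per condition and no value per replicate. No replicate was left out in turn, and the depth behind each value is unknown.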
